A study of Homo sapiens with 21 samples.

Results

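The comparison set polyadenylated RNA of 3p loss cells against that of 3q gain cells, 2 isogenic derivatives of a human lung epithelial cell line that differ in the short arm (3p) and the long arm (3q) of chromosome 3. Its members were 6 libraries of the 21 in the series, 3 biological replicates of each genotype. By their labels the first carry a loss of 3p and the second a gain of 3q; how many copies of each arm they hold is not stated there. The 3 libraries of chromosome 3 WT cells were kept out of the fit, so that their own peculiarities could not enter the contrast, and they appear here only as levels beside the others. How many clones stand behind each genotype is not given in the sources used here; neither are a treatment, a time point or a name of the cell line. Of 17756 protein-coding genes listed, 11211 had a mean of at least 1 TPM (an abundance scaled for gene length and for library size, taken as the unit from the column sums) over the 6 libraries and were tested. The gene just inside that limit was GJA3 with a mean of 1.0019 TPM, and the one just outside it was FOXL1 with 0.999 TPM.

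Loss of 3p and gain of 3q are common arm-level changes of squamous lung cancer. The short arm carries tumour suppressor genes such as VHL, BAP1, PBRM1 and SETD2, and the long arm carries growth and lineage genes such as TP63, PIK3CA and PRKCI. A change of copy number alters the template for every gene on an arm at once, and the cell can meet the change in RNA, in translation or in protein turnover. If cells with 2 copies of each arm lost 1 copy of 3p or added 1 copy of 3q, copy arithmetic alone gives -1 on the log2 scale for 3p (1 copy against 2) and -0.58 for 3q (2 copies against 3). Both arms are therefore lower in 3p loss than in 3q gain cells by arithmetic, 3p because it was lost in the first and 3q because it was added in the second.

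The column sums of the 6 libraries lay between 905027 and 910640 TPM, and the read depth behind them is unknown. Over the tested genes, log2 values correlated at 0.951 to 0.973 among 3p loss libraries, at 0.976 to 0.981 among 3q gain libraries and at 0.943 to 0.966 between the groups. Replicates 2 and 3 of 3p loss correlated at 0.951, below the 0.966 of 3p loss replicate 2 with 3q gain replicate 2. Epithelial markers (EPCAM, CDH1, KRT8, KRT18, KRT19) summed to 3500 to 6350 TPM in 3p loss and 2430 to 3810 TPM in 3q gain libraries. Basal airway markers, led by KRT5, summed to 9130 to 14900 TPM in 3p loss and 5640 to 9050 TPM in 3q gain libraries. Secretory markers reached no more than 0.56 TPM in 3p loss and 0.851 TPM in 3q gain, and alveolar markers no more than 5.31 and 7.52 TPM, with 2 of 7 alveolar markers at 0 in all 6 libraries. Ciliated markers summed to 2.62 to 4.26 TPM in 3p loss and 2.76 to 3.58 TPM in 3q gain. The RNA thus had the keratins of basal airway epithelium rather than secretory, alveolar or ciliated markers. Fibroblast, endothelial and immune markers are given further below.

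Single libraries had shifted stretches on chromosomes other than 3. In 36 of 269 windows of 10 Mb off chromosome 3 (each with at least 8 tested genes), the median levels of libraries of 1 group differed by more than 0.5 on the log2 scale, and these windows joined into 12 stretches with 1222 tested genes and 11 calls. Off chromosome 3 as a whole, 1.82% of tested genes were called. The stretches were picked for a spread within a group, which enlarges the error of the test, so few calls follow from the choice. The stretch at the start of chromosome 10 (first 40 Mb) had levels of -0.67, 0.48 and -0.57 in 3p loss libraries and 0.09, 0.40 and 0.38 in 3q gain libraries. Its median log2 change was -0.51, and 0 of its 97 genes were called, which the spread it was picked for favours. On the long arm of chromosome 7, stretches between 60 and 90 Mb and between 110 and 140 Mb were high in 3p loss replicates 1 and 3 and 3q gain replicate 1 and low in the other libraries. The first had levels of 0.38, -0.40 and 0.45 in 3p loss and 0.36, -0.41 and -0.40 in 3q gain, and holds CLDN4. The end of chromosome 2, from 190 to 250 Mb, was low in 3q gain replicate 3 alone, at -0.65, and holds ALPP and ACKR3. The start of chromosome 16 was low in 3p loss replicate 2 at -0.61 and holds KREMEN2. A stretch of chromosome 11 (70 to 80 Mb) was high in 3p loss replicate 1 at 0.66 and low in 3q gain replicate 3 at -0.76. The calls were also counted without the genes of these stretches.

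**Figure D1:**
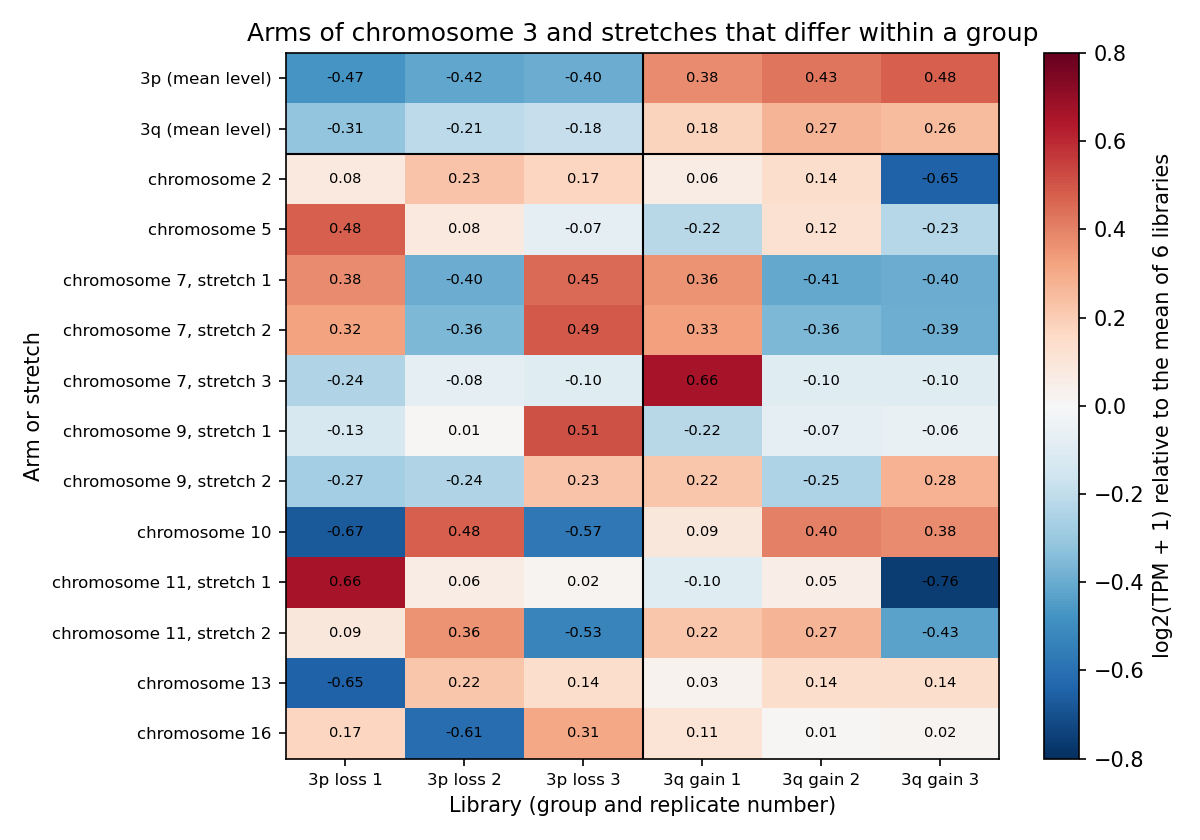
Mean level of 3p and 3q and median level of 12 stretches of other chromosomes in each library, as log2(TPM + 1) relative to the mean of the 6 libraries, 3p loss libraries left and 3q gain libraries right of the line. The 2 arms of chromosome 3, taken relative to the other autosomes, split by genotype. The stretches were picked because libraries of the same genotype differed there, such as -0.67 and 0.48 on chromosome 10 within 3p loss. Their contrast with the arms therefore follows from how they were chosen.

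The limma test on log2(TPM + 1), with Benjamini-Hochberg adjusted p under 0.05 as the threshold, called 432 of 11211 genes, which is 3.85%. Of these, 101 were higher in 3p loss cells (0.901% of tested genes) and 331 were lower (2.95%). At an unadjusted p under 0.05 in the same test, 1922 of 11211 genes passed, and 1428 of the 10557 off chromosome 3. In what follows, a gene that rose or fell in 3p loss cells was higher or lower there than in 3q gain cells, whatever its WT level. The excess of lower calls lay on chromosome 3, with 186 of them on 3p and 54 on 3q, and none of the higher calls was there. All 432 kept their sign in each of the 6 fits that left out 1 library, but the number past the threshold depended on the libraries. Leaving out a 3p loss library gave 82 calls (replicate 1), 549 (replicate 2) or 286 (replicate 3), and leaving out a 3q gain library gave 124 (replicate 1), 36 (replicate 2) or 107 (replicate 3). For most genes described, how many of these 6 fits kept the call is given in the same paragraph.

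On the short arm, 319 of 468 listed genes were tested, and 186 of them (58.3%) fell in 3p loss cells, with none that rose. The median log2 change of the tested 3p genes was -0.84, with quartiles at -1.02 and -0.70, against 0.01 for the 10557 tested genes off chromosome 3. As a fold, the median 3p gene in 3p loss cells stood at 0.559 of its level in 3q gain cells. The estimate was below 0 for 309 of 319 genes, and for 285 of them all 3 3p loss libraries lay below all 3 3q gain libraries, where 12.8% of all tested genes were lower without overlap. The number of 3p calls dropped to 51 when 3p loss replicate 1 was left out, and to 84, 22 or 50 when 3q gain replicate 1, 2 or 3 was.

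To set each library against its own genome, the average log2 level of tested 3p genes was taken relative to the average over tested genes of the other autosomes and centred over the 6 libraries. It was -0.47, -0.42 and -0.40 in the 3p loss libraries, against 0.38, 0.43 and 0.48 in the 3q gain libraries, a difference of -0.86 on the log2 scale. The groups did not overlap, and the exact two-sided permutation p was 0.1, the smallest that 3 against 3 libraries can give. For 3q the same quantity was -0.31, -0.21 and -0.18 in 3p loss and 0.18, 0.27 and 0.26 in 3q gain, a difference of -0.47 with the same p of 0.1. These differences were smaller in size than the -1 and -0.58 of copy arithmetic, and with a pseudocount of 0.1 in place of 1 the 3p difference was -0.96. Summed over the tested genes of the arm, 3p RNA came to 12789, 13345 and 13315 TPM in 3p loss libraries and 24970, 25308 and 27072 TPM in 3q gain libraries. For 3q the sums were 17872, 19286 and 19309 TPM in 3p loss libraries and 25328, 26336 and 27383 TPM in 3q gain libraries.

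**Figure D2:**
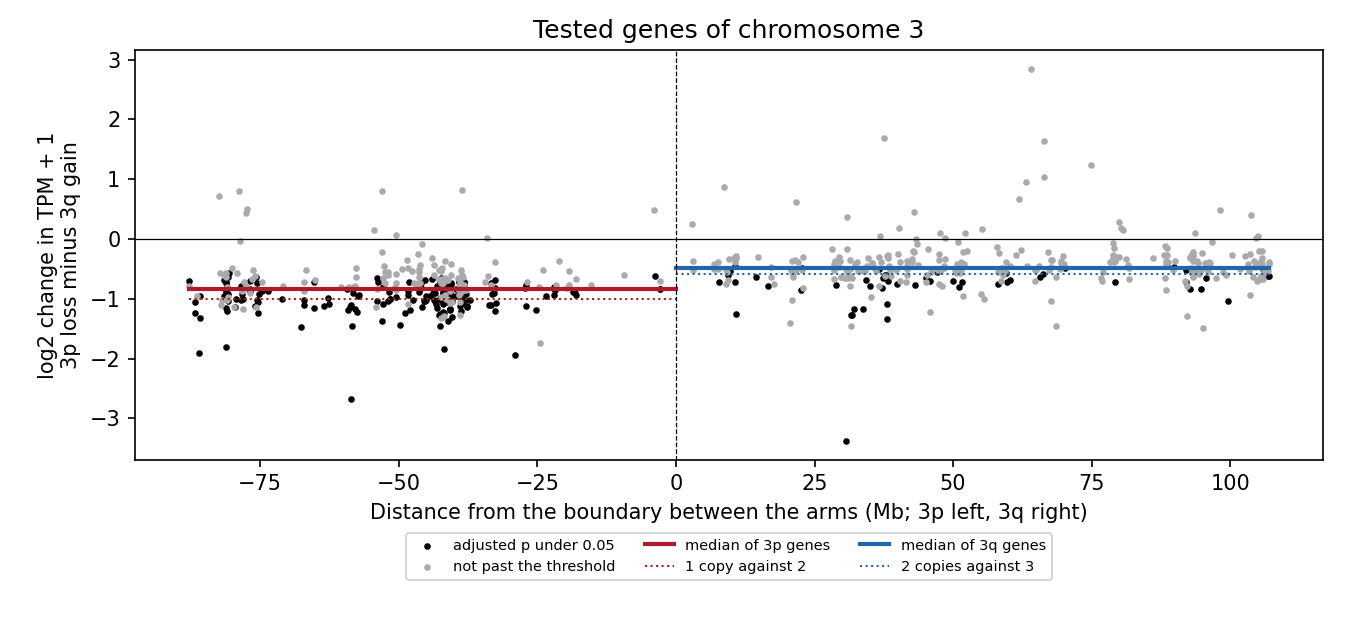
Each point is 1 tested gene of chromosome 3, placed by its distance in Mb from the boundary between the arms (3p left, 3q right), with the log2 change of 3p loss minus 3q gain on the vertical axis. Black points passed the adjusted p of 0.05, solid lines are the arm medians (-0.84 on 3p and -0.48 on 3q), and dotted lines mark copy arithmetic of -1 and -0.58; the step falls at the boundary and the level is even along each arm.

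The shift ran along the whole length of both arms. In windows of the same kind, the 8 windows of 3p had medians between -0.99 and -0.79, and the 11 windows of 3q between -0.53 and -0.34. Of the 269 windows on other chromosomes, 240 had a median within 0.2 of 0. On 3q, 54 of 329 tested genes of 513 listed (16.4%) were called lower in 3p loss than in 3q gain cells and none higher. The median 3q change was -0.48, with quartiles at -0.63 and -0.33, which is 0.715 of the 3q gain level, and 303 of 329 estimates were below 0. The number of 3q calls dropped to 1 or 17 when 3p loss replicate 1 or 3 was left out, and to 4, 0 or 3 when 3q gain replicate 1, 2 or 3 was. Among the calls, the mean level of the WT libraries lay nearer to 3q gain for 179 of 186 genes on 3p and nearer to 3p loss for 39 of 54 genes on 3q, as levels with no test.

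The 3p gene with the largest drop was CMTM7, a MARVEL-domain membrane protein gene at chr3:32391853-32455528 (GRCh38). It had 2.59, 4.68 and 4.50 TPM in 3p loss libraries and 38.9, 23.1 and 29.2 TPM in 3q gain libraries. Every 3p loss library was below every 3q gain library, with a log2 change of -2.67 ± 0.25 (SE) and an adjusted p of 0.00602, and the WT libraries had 35.3, 37.9 and 41.8 TPM. BHLHE40, a basic helix-loop-helix repressor of the circadian and hypoxia programmes, had 17.2, 22 and 27.4 TPM in 3p loss and 83.1, 92.8 and 78.4 TPM in 3q gain (log2 change -1.90 ± 0.17, adjusted p = 0.00547). No 3p loss library of BHLHE40 came near a 3q gain library. PTPRG, a receptor tyrosine phosphatase, had 0.628, 1.13 and 1.78 TPM in 3p loss and 7.59, 9.07 and 5.26 TPM in 3q gain. KLHDC8B had 7.43, 6.68 and 9.14 TPM in 3p loss and 23.1, 33.0 and 36.1 TPM in 3q gain. The WT libraries of KLHDC8B had 13.5, 9.16 and 20.4 TPM and lay between the groups. Those of BHLHE40 (113, 149 and 111 TPM) and PTPRG (12.2, 9.84 and 10.3 TPM) lay above 3q gain. All 4 differed between 3p loss and 3q gain by more than copy arithmetic gives, as point estimates (-1.94 for PTPRG and -1.84 for KLHDC8B). CMTM7 and BHLHE40 kept their calls in 6 of 6 fits with 1 library left out; KLHDC8B lost its call without 3q gain replicate 2 (adjusted p = 0.0524) and PTPRG without 3p loss 1, 3q gain 1 or 3q gain 2 (largest adjusted p = 0.0821).

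The 4 most positive 3p values among genes whose higher group averaged 5 TPM or more did not pass the test. TIMP4, an inhibitor of metalloproteases, had 3.07, 0.324 and 12.0 TPM in 3p loss and 1.20, 2.23 and 0.812 TPM in 3q gain. VILL had 9.56, 3.72 and 7.34 TPM in 3p loss and 0.936, 3.90 and 7.21 TPM in 3q gain, and NUP210, a nuclear pore membrane protein, 3.99, 5.83 and 19.6 TPM in 3p loss and 3.60, 2.77 and 15.2 TPM in 3q gain. In these 3 genes the libraries of 1 group spread over several-fold. ARHGEF3, a guanine nucleotide exchange factor, was tight within groups and level between them, with 13.8, 15.1 and 14.7 TPM in 3p loss and 16.5, 13.3 and 13.4 TPM in 3q gain (log2 change 0.02 ± 0.14).

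Of 33 tested genes on a list of known 3p tumour genes, 21 fell in 3p loss cells and none rose, with a median of -0.91; the whole arm had 58.3% called and a median of -0.84. CTNNB1, which encodes beta-catenin of Wnt signalling and adherens junctions, had 95.5, 117 and 92.7 TPM in 3p loss and 282, 287 and 254 TPM in 3q gain. The groups lay far apart (log2 change -1.43 ± 0.12, adjusted p = 0.00465). RHOA, the small GTPase of actin contraction, had 275, 300.3 and 288 TPM in 3p loss and 533, 553 and 550.4 TPM in 3q gain (log2 change -0.92 ± 0.08, adjusted p = 0.00515). GPX1, which reduces peroxides, had 377, 387 and 356 TPM in 3p loss and 742, 784 and 708 TPM in 3q gain (log2 change -0.99 ± 0.08). CTDSPL, a phosphatase gene, had 28.3, 31.5 and 28.1 TPM in 3p loss and 75.5, 74.3 and 81.4 TPM in 3q gain (log2 change -1.36 ± 0.10). ATG7, an enzyme of autophagosome formation, had 10.8, 11.1 and 10.9 TPM in 3p loss and 26.0, 23.5 and 26.1 TPM in 3q gain. These 5 kept their calls in all 6 fits with 1 library left out.

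Among the 21 that fell were tumour suppressors of chromatin and protein turnover. VHL, the ubiquitin ligase subunit that marks HIF for degradation, had 16.6, 18.3 and 17.0 TPM in 3p loss and 27.9, 35.1 and 38.8 TPM in 3q gain. BAP1, a nuclear deubiquitinase, had 29.6, 28.4 and 35.9 TPM in 3p loss and 60.1, 59.7 and 70.5 TPM in 3q gain. PBRM1, a subunit of the PBAF remodeller, had 16.4, 17.5 and 15.4 TPM in 3p loss and 25.1, 33.3 and 31.9 TPM in 3q gain, and SETD2, the histone H3 lysine 36 methyltransferase, 13.8, 16.4 and 17.8 TPM in 3p loss and 27, 32.0 and 33.4 TPM in 3q gain. None of the 4 overlapped between groups, which held for 285 of the 319 tested 3p genes. Their log2 changes lay between -0.999 (BAP1) and -0.82 (PBRM1), with adjusted p of 0.0205 for VHL, 0.0129 for BAP1, 0.0266 for PBRM1 and 0.0205 for SETD2. Each lost its call without 3p loss 1, 3q gain 2 or 3q gain 3, VHL and PBRM1 also without 3p loss 3 and SETD2 without 3q gain 1, with a largest adjusted p of 0.119. FANCD2 of crosslink repair, OGG1 of base excision repair and TOP2B were also called, with log2 changes of -0.90, -0.74 and -1.15, and kept their calls in 1, 1 and 3 of these fits.

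RASSF1, a Ras-association tumour suppressor, was one of the known 3p genes that did not pass, with 15.4, 27.4 and 16.4 TPM in 3p loss and 20.9, 29.6 and 28.0 TPM in 3q gain (log2 change -0.42 ± 0.24, adjusted p = 0.445). TGFBR2, the type 2 receptor of TGF-beta, had 19.6, 19.5 and 63.5 TPM in 3p loss and 56.1, 52.2 and 46.7 TPM in 3q gain, so that 3p loss replicate 3 stood above all 3q gain libraries (log2 change -0.80 ± 0.42, adjusted p = 0.396). PPARG, a nuclear receptor of lipid genes, had 6.51, 1.44 and 7.36 TPM in 3p loss and 7.92, 5.04 and 2.08 TPM in 3q gain (log2 change -0.04 ± 0.56). XPC, a sensor of DNA damage, had 9.04, 12.9 and 15.4 TPM in 3p loss and 22.3, 23 and 25.5 TPM in 3q gain and missed the threshold at an adjusted p of 0.0533. With the replicate number as a block it passed (adjusted p = 0.0408), whereas ATRIP, called at 0.0368, did not (0.0577). ATRIP kept its call in 0 of 6 fits with 1 library left out (largest adjusted p = 0.133).

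On 3q, HCLS1 (chr3:121631399-121660903) had the largest drop, with 3.57, 11.5 and 2.75 TPM in 3p loss and 51.8, 48.2 and 92.6 TPM in 3q gain. HCLS1 encodes a cortactin-like actin regulator known from blood cells, and its log2 change was -3.38 ± 0.46 (adjusted p = 0.0130), far beyond the arm median. Its WT libraries had 83.2, 7.18 and 38.3 TPM and spanned both groups. PARP14 and DTX3L, interferon-induced neighbours that act in ADP-ribosylation and ubiquitination, also lay below the arm. PARP14 had 13.2, 14.7 and 23.1 TPM in 3p loss and 47.5, 32.2 and 46.6 TPM in 3q gain (log2 change -1.28 ± 0.24, adjusted p = 0.0327), and DTX3L 19.6, 19.0 and 33.0 TPM in 3p loss and 69.2, 43.4 and 61.5 TPM in 3q gain (log2 change -1.27 ± 0.25, adjusted p = 0.0397). WT libraries had 15.2, 6.125 and 11.9 TPM of PARP14 and 19.9, 10.3 and 16.8 TPM of DTX3L, below all 3q gain libraries. RAB43, a Golgi GTPase, had 3.82, 2.22 and 3.09 TPM in 3p loss and 9.18, 8.54 and 9.38 TPM in 3q gain (log2 change -1.33 ± 0.20). Each lost its call without any 1 of the 3 3q gain libraries, HCLS1 also without 3p loss 1, and PARP14 and DTX3L without 3p loss 1 or 3p loss 2 (largest adjusted p = 0.154).

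Of 44 tested genes on a list of known 3q cancer genes, 9 were called lower in 3p loss than in 3q gain cells and none higher. The median was -0.49, and the arm had 16.4% called and a median of -0.48. MCM2, a helicase subunit of replication origins, had 150.4, 156 and 162 TPM in 3p loss and 209.6, 225 and 234 TPM in 3q gain (log2 change -0.51 ± 0.09, adjusted p = 0.0267). Its WT libraries had 106.6, 107.6 and 107.0 TPM, below those of both groups. PRKCI, an atypical protein kinase C, had 41.7, 50.4 and 46.8 TPM in 3p loss and 80.1, 81.4 and 69.7 TPM in 3q gain (log2 change -0.72 ± 0.12, adjusted p = 0.0216). IGF2BP2, an RNA-binding protein, had 54.8, 59.6 and 45.9 TPM in 3p loss and 94.5, 106 and 86.5 TPM in 3q gain (log2 change -0.83 ± 0.13). TP63, the master factor of basal epithelium, had 70.7, 81.8 and 54.1 TPM in 3p loss and 92.5, 123 and 87.5 TPM in 3q gain and did not pass (log2 change -0.55 ± 0.19, adjusted p = 0.187). PIK3CA, a catalytic subunit of PI3 kinase, had 11.4, 14.9 and 16.7 TPM in 3p loss and 21.6, 26.4 and 20.4 TPM in 3q gain (log2 change -0.64 ± 0.18, adjusted p = 0.103). In both, the groups did not overlap, which held for 227 of the 329 tested 3q genes. With the replicate block, ACTL6A (adjusted p = 0.0569), DCUN1D1 (0.0573), NFKBIZ (0.0682) and FXR1 (0.0710) were no longer called, and CD47 (0.0463), PDCD10 (0.0387) and WWTR1 (0.0461) were. The calls of MCM2 and PRKCI were kept in 1 of 6 fits with 1 library left out, that without 3p loss 2, and IGF2BP2 also without 3p loss 3. ACTL6A, DCUN1D1 and NFKBIZ kept theirs in 1 of 6 and FXR1 in 0 of 6 (largest adjusted p = 0.176).

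Some 3q genes had estimates near 0. TFRC, the transferrin receptor, had 103, 104 and 108 TPM in 3p loss and 98.5, 113 and 95.0 TPM in 3q gain (log2 change 0.05 ± 0.10), and WT libraries had 80.3, 83.1 and 46.5 TPM. BCL6, a transcriptional repressor, had 20.2, 22.1 and 25.9 TPM in 3p loss and 20.4, 24.0 and 26.4 TPM in 3q gain (log2 change -0.05 ± 0.15). MME, a cell-surface peptidase, had the most positive 3q value, with 8.21, 1.30 and 42.8 TPM in 3p loss and 0.495, 0.567 and 0.0724 TPM in 3q gain, and did not pass (adjusted p = 0.166). GATA2, a factor of haematopoietic and endothelial cells, had 0.756, 10.7 and 1.54 TPM in 3p loss and 0.155, 0.256 and 0.0854 TPM in 3q gain (adjusted p = 0.248), so that 1 library made most of the difference.

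Ribosomal proteins are made from genes scattered over many chromosomes and assemble in fixed proportion. All 7 tested cytosolic ribosomal protein genes of chromosome 3 were called lower in 3p loss than in 3q gain cells. None of the 72 on other chromosomes was called (0 at an unadjusted p under 0.05), with a median of -0.04. Over all tested genes, 58.3% were called on 3p, 16.4% on 3q and 1.82% off chromosome 3. The 5 genes of 3p (RPSA, RPL14, RPL15, RPL29, RPL32) had log2 changes between -1.12 and -0.96. RPSA had 1859, 1527 and 1504 TPM in 3p loss and 3227, 3117 and 3430 TPM in 3q gain (log2 change -1.004 ± 0.11, adjusted p = 0.00883). RPL29 had 1136, 1289 and 1289 TPM in 3p loss and 2718, 2404 and 2998 TPM in 3q gain (log2 change -1.12 ± 0.11). On 3q, RPL35A had 2220, 2278 and 2219 TPM in 3p loss and 3278, 3323 and 3715 TPM in 3q gain (log2 change -0.62 ± 0.08, adjusted p = 0.0129). RPL24 had 2863, 2606 and 2695 TPM in 3p loss and 3783, 3416 and 4013 TPM in 3q gain (log2 change -0.46 ± 0.09), with an adjusted p of 0.0402 that became 0.0720 with the replicate block. WT libraries had 2157, 2322 and 2196 TPM of RPL35A and 2367, 2904 and 1913 TPM of RPL24, below all 3q gain libraries. All 5 3p genes kept their calls in 6 of 6 fits with 1 library left out, RPL35A lost its call without 3p loss 1 or 3q gain 2, and RPL24 lost it in all 6. Ribosomal protein genes have many processed copies in the genome, and the sources used here do not say how reads were divided among them.

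Other complexes have single members on the chromosome. PSMD6, a proteasome lid subunit on 3p, had 69.4, 74.2 and 82.5 TPM in 3p loss and 127, 122 and 137 TPM in 3q gain (log2 change -0.77 ± 0.11, adjusted p = 0.0130), against a median of 0.18 for the 30 proteasome genes off chromosome 3, of which 0 were called and 7 were higher at an unadjusted p under 0.05. UQCRC1, a core subunit of respiratory complex III on 3p, had 348, 294 and 328 TPM in 3p loss and 467, 519.8 and 535 TPM in 3q gain (log2 change -0.65 ± 0.10, adjusted p = 0.0191). Of 53 genes on the list of complexes II to V, only 23 were matched by symbol, so the rest were not looked at. The 22 tested genes of the list off chromosome 3 all had estimates above 0, with a median of 0.30, but 0 were called by limma and 14 were higher at an unadjusted p under 0.05. Of the 35 complex I genes off chromosome 3, 31 had estimates above 0 with a median of 0.21, with 0 called and 10 higher at an unadjusted p under 0.05. Off chromosome 3 as a whole, 1428 of 10557 genes reached that unadjusted p in either direction. On 3q, PSMD2 of the proteasome (log2 change -0.28) and NDUFB4 (-0.37) and NDUFB5 (-0.16) of complex I did not pass. PSMD6 and UQCRC1 lost their calls without 3p loss 1 or any 1 of the 3q gain libraries (largest adjusted p = 0.0931).

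Off chromosome 3, 192 of 10557 tested genes were called (1.82%), 101 higher in 3p loss cells (0.957%) and 91 lower (0.862%). With each library centred on its median gene, which moves the median of all genes by 0.06, the split was 136 higher and 66 lower. These calls numbered 30, 310 or 118 when 3p loss replicate 1, 2 or 3 was left out, and 36, 14 or 54 when 3q gain replicate 1, 2 or 3 was. Without regard to the test, the libraries of the groups did not overlap for 19.1% of genes off chromosome 3, with 8.74% lower in 3p loss. With the genes of the shifted stretches left out, 191 were called. For 81 of the 101 higher and 73 of the 91 lower genes, the WT mean lay nearer to that of 3q gain cells.

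The list of BMP and ID genes had the most calls off chromosome 3. Bone morphogenetic proteins such as BMP2 and BMP7 bind serine/threonine kinase receptors, which phosphorylate SMAD proteins that enter the nucleus and raise the ID genes and the inhibitory SMAD6. ID proteins lack a DNA-binding region and hold basic helix-loop-helix factors inactive. Of 18 tested genes of the list off chromosome 3, 8 rose in 3p loss cells and none fell, with a median log2 change of 1.08, against 0.957% of genes higher off chromosome 3 and a median of 0.01. The list was chosen with earlier results of these data known. ID4, BMP7, SMAD6 and ATOH8 averaged under 1 TPM in 3q gain and entered the test through their 3p loss levels. These genes could be called higher but hardly lower, so the count is no independent support. ID2 had 40.3, 78.8 and 75.8 TPM in 3p loss and 1.48, 2.03 and 5.31 TPM in 3q gain (log2 change 4.13 ± 0.39, adjusted p = 0.00602). All 4 ID genes rose, and in each of them every 3p loss library was above every 3q gain library, as in 1089 of 10557 tested genes off chromosome 3. ID1 had 901, 1426 and 1315 TPM in 3p loss and 302, 328 and 585 TPM in 3q gain (log2 change 1.62 ± 0.28, adjusted p = 0.0249). ID3 had 461, 482 and 592 TPM in 3p loss and 199, 214 and 332 TPM in 3q gain (log2 change 1.07 ± 0.20, adjusted p = 0.0343). ID4 was near 0 in 3q gain, with 5.66, 13.6 and 4.89 TPM in 3p loss and 0.0429, 0 and 0.0355 TPM in 3q gain (log2 change 3.02 ± 0.37, adjusted p = 0.0107).

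The start regions of the 4 ID genes are shown because these genes moved together; each runs from 250 bases before to 50 bases after the transcription start in RefSeq (GRCh38.p14), 5′ to 3′ on the gene's strand, with matches to TATAA on either strand in capitals. They lie at chr20:31605039-31605338 (ID1, plus strand), chr2:8681806-8682105 (ID2, plus), chr1:23559452-23559751 (ID3, minus) and chr6:19837120-19837419 (ID4, plus).
ID1: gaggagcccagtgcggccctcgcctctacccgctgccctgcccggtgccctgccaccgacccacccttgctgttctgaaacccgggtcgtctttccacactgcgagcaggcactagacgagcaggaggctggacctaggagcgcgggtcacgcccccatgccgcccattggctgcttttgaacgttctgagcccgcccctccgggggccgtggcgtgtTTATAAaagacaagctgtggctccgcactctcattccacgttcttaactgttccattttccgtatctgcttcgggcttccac
ID2: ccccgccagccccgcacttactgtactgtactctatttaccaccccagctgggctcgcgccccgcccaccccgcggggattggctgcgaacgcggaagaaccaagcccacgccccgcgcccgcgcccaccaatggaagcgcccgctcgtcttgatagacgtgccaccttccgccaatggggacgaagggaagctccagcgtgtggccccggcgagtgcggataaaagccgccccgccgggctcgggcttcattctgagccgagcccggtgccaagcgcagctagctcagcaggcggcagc
ID3: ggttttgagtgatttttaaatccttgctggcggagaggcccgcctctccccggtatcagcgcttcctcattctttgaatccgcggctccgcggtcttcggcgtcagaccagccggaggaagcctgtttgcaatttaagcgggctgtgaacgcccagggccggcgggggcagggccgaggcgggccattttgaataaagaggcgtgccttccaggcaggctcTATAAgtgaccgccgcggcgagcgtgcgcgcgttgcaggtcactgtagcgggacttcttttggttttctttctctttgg
ID4: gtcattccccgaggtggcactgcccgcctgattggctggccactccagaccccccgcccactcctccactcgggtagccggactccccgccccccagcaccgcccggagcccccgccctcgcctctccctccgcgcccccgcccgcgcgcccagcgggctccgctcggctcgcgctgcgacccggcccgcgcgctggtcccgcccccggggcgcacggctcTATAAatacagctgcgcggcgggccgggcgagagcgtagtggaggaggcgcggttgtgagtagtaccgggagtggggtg
A promoter was matched by symbol for 6 of the 8 called genes of the list, and TATAA was in 3 of these (ID1, ID3, ID4), at 29 to 32 bases before the start. It was in 10.6% of the 9215 tested genes with a promoter and in 21.1% of all 27305 promoters. The letters GGCGCC, a GC-rich sequence that SMAD proteins can bind, were in 0 of the 6 and in 31.6% of tested genes. TATAA was chosen after the sequences were seen, and a match describes the letters only.

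The ligand genes BMP2 and BMP7 and the inhibitor gene SMAD6 rose too. BMP2 had 13.4, 14.9 and 16.6 TPM in 3p loss and 2.67, 3.45 and 4.90 TPM in 3q gain (log2 change 1.80 ± 0.21, adjusted p = 0.0102). BMP7 had 5.25, 11.8 and 11.0 TPM in 3p loss and 0.782, 0.939 and 1.16 TPM in 3q gain (log2 change 2.34 ± 0.31, adjusted p = 0.0123). SMAD6, the inhibitory SMAD, had 3.38, 9.18 and 12.9 TPM in 3p loss and 0.203, 0.268 and 0.924 TPM in 3q gain (log2 change 2.57 ± 0.44, adjusted p = 0.0251). ATOH8, a helix-loop-helix factor that BMP signalling raises in endothelial cells, had 4.77, 5.75 and 18.9 TPM in 3p loss and 0.150, 0.232 and 0.710 TPM in 3q gain (log2 change 2.77 ± 0.47, adjusted p = 0.0249). None of the list's 5 tested receptors off chromosome 3 was called, with log2 changes between -0.20 (ACVR1) and 0.15 (BMPR1B), nor was SMAD1 (0.06), SMAD5 or SMAD9 (1.09 ± 0.39, adjusted p = 0.203) among the SMAD genes that carry the signal. BMPR1A had 16.8, 22 and 21.3 TPM in 3p loss and 19.4, 25.5 and 24.0 TPM in 3q gain (log2 change -0.19 ± 0.16), and SMAD5 26.8, 34.5 and 32.9 TPM in 3p loss and 33.9, 35.1 and 36.3 TPM in 3q gain (log2 change -0.16 ± 0.13). BMP4 did not pass, with 3.03, 2.15 and 6.00 TPM in 3p loss and 0.361, 1.01 and 0.298 TPM in 3q gain (adjusted p = 0.0668). ID4, BMP7, ATOH8, BMP4, ACVR1, BMPR1A, BMPR1B, SMAD1, SMAD5 and SMAD9 were chosen for naming after their values were seen, as were KRT5, KRT14 and KRT6B and DCN. The number of called genes of the list was 1 to 6 in the fits with 1 library left out and 3 when the filter was raised to a mean of 10 TPM. ID2 kept its call in 6 of 6 such fits, BMP2, BMP7 and ID4 lost it without 3q gain 2, and ID1, ID3, SMAD6 and ATOH8 in 4 or 5 of the 6 (largest adjusted p = 0.131).

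**Figure D3:**
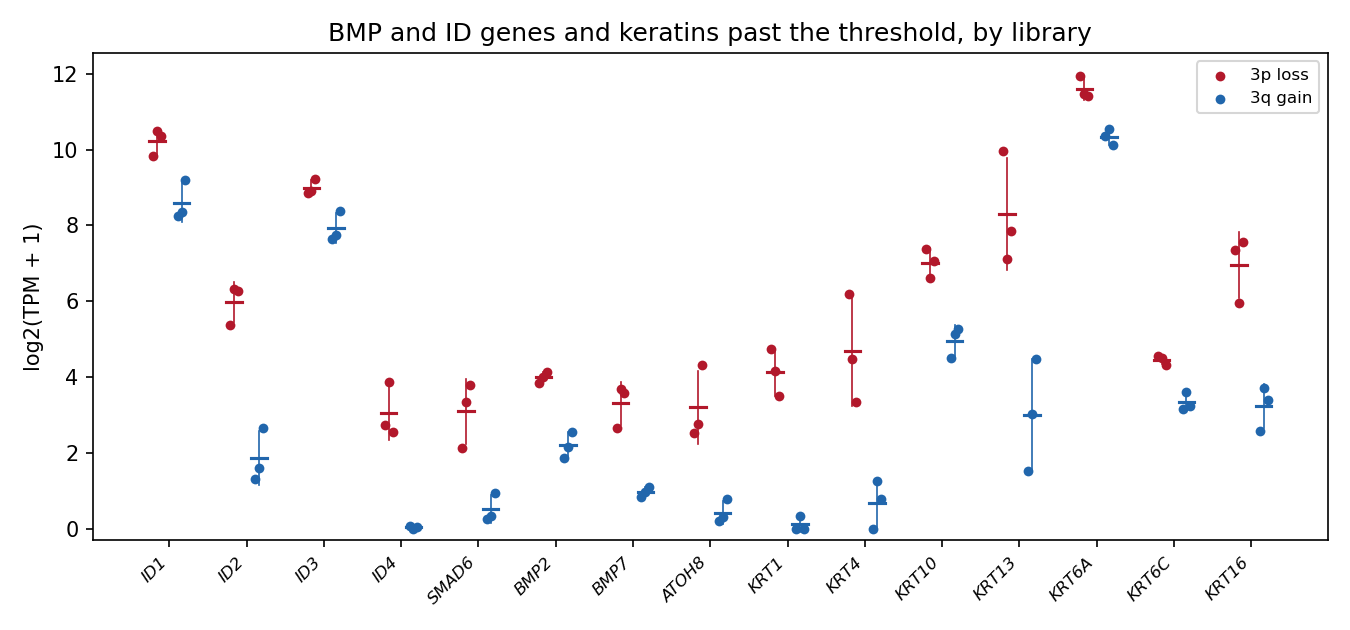
Level of the called BMP and ID genes and keratins as log2(TPM + 1), 3p loss libraries (red) left of 3q gain libraries (blue), with 1 point for each of 3 libraries a group, horizontal bars at the mean and vertical lines of 1 SD. In all 15 genes the 3p loss libraries lie above the 3q gain libraries, and the spread of KRT13 and KRT4 is the widest.

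Keratins are the intermediate filaments of epithelium, with KRT5 and KRT14 in basal cells, KRT6 and KRT16 under stress or in wound repair, KRT1 and KRT10 in cornifying layers and KRT4 and KRT13 in moist stratified layers. Of 9 tested suprabasal and simple keratins, 4 rose in 3p loss cells and none fell, with a median of 0.95, and of 8 basal and stress keratins 3 rose and none fell, with a median of 1.20, against 0.957% of genes higher and a median of 0.01 off chromosome 3. KRT1 and KRT4 averaged under 1 TPM in 3q gain and entered the test through their 3p loss levels, so they could hardly be called lower. KRT13 (chr17:41500981-41505612) had 990.5, 136 and 230.4 TPM in 3p loss and 1.86, 7.16 and 21.3 TPM in 3q gain (log2 change 5.29 ± 0.89, adjusted p = 0.0240). KRT4 had 72.2, 21.4 and 9.19 TPM in 3p loss and 0, 1.41 and 0.733 TPM in 3q gain (log2 change 3.99 ± 0.68, adjusted p = 0.0251). KRT1 had 25.6, 16.8 and 10.2 TPM in 3p loss and was listed at 0, 0.265 and 0 TPM in 3q gain (log2 change 4.01 ± 0.33, adjusted p = 0.00465). In all 3 genes 3p loss replicate 1 had the highest level. KRT10 had 164, 96.2 and 132 TPM in 3p loss and 21.6, 34.0 and 37.2 TPM in 3q gain (log2 change 2.05 ± 0.25, adjusted p = 0.0112).

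KRT16, the stress keratin, had 163, 60.9 and 188 TPM in 3p loss and 4.96, 12.1 and 9.59 TPM in 3q gain (log2 change 3.73 ± 0.46, adjusted p = 0.0112). KRT6A had 3941, 2805 and 2703 TPM in 3p loss and 1311, 1480 and 1109 TPM in 3q gain (log2 change 1.26 ± 0.17, adjusted p = 0.0129), and KRT6C 22.4, 21.6 and 19.1 TPM in 3p loss and 7.92, 11.2 and 8.37 TPM in 3q gain. KRT6A, KRT6B and KRT6C are nearly identical in sequence, as are KRT14, KRT16 and KRT17 in part, so their levels are uncertain where reads were shared, and KRT6B overlapped between groups. KRT5, the basal keratin, did not pass, with 14160, 9537 and 8468 TPM in 3p loss and 6074, 8562 and 5288 TPM in 3q gain (log2 change 0.69 ± 0.23, adjusted p = 0.188). KRT14 spread widely, with 336, 60.6 and 236 TPM in 3p loss and 10.5, 72.8 and 81.8 TPM in 3q gain (log2 change 2.04 ± 0.88, adjusted p = 0.293). KRT16 kept its call in 5 of 6 fits with 1 library left out, KRT6A in 4, KRT6C in 3, and KRT13 and KRT4 in 2 (largest adjusted p = 0.0985).

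The cornified envelope genes, which crosslink under the membrane of terminally differentiating cells, had 1 call among 11 tested off chromosome 3, with a median of 1.42. Over all tested genes off chromosome 3, 1.82% were called. SCEL, a precursor of the envelope, had 27, 19.1 and 18.8 TPM in 3p loss and 4.90, 4.15 and 6.62 TPM in 3q gain (log2 change 1.86 ± 0.21, adjusted p = 0.00969). Leaving out 3p loss replicate 2 gave 6 calls and leaving out 3q gain replicate 2 gave 0, and 6 of the 11 were higher at an unadjusted p under 0.05. CLDN4, a tight junction claudin, rose with 143, 60.4 and 79.0 TPM in 3p loss and 13.1, 10.5 and 31.1 TPM in 3q gain (log2 change 2.36 ± 0.44, adjusted p = 0.0320), the only call among 28 desmosome and junction genes. KRT1 kept its call in 6 of 6 fits with 1 library left out, SCEL and KRT10 in 5; with the WT libraries in the fit SCEL was not called (adjusted p = 0.142) and the envelope list had 0 calls by limma; CLDN4 lost it in 4 (largest adjusted p = 0.112).

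Other genes far higher in 3p loss cells came from several families. ALPP, placental alkaline phosphatase (chr2:232378751-232382889), had 136, 166 and 86.5 TPM in 3p loss and 5.79, 6.77 and 5.76 TPM in 3q gain (log2 change 4.15 ± 0.23, adjusted p = 0.00262). IGF2BP1, a fetal RNA-binding protein, had 14.8, 17.4 and 9.59 TPM in 3p loss and 0.295, 0.147 and 0.112 TPM in 3q gain (log2 change 3.62 ± 0.26, adjusted p = 0.00465). NID1, a basement membrane glycoprotein, had 24.7, 18.7 and 34.5 TPM in 3p loss and 0.5, 1.53 and 0.437 TPM in 3q gain (log2 change 3.90 ± 0.30, adjusted p = 0.00465). ALPP has near-identical gene copies beside it, with which it could share reads. These 3 kept their calls in all 6 fits with 1 library left out. ANKRD1, a target of YAP, had 18.8, 16.5 and 99.7 TPM in 3p loss and 0.531, 1.21 and 0.804 TPM in 3q gain (log2 change 4.16 ± 0.62, adjusted p = 0.0167), the only call among 15 tested YAP targets off chromosome 3. Of all tested genes off chromosome 3, 1.82% were called. IGF2BP1, NID1, ANKRD1, EPGN and SPON2 averaged under 1 TPM in 3q gain and entered the test through their 3p loss levels. EPGN, a ligand of EGFR, had 6.37, 18.2 and 9.44 TPM in 3p loss and 0.126, 0.335 and 0.520 TPM in 3q gain (log2 change 3.11 ± 0.36, adjusted p = 0.0102). TWIST1, a mesenchymal transcription factor, had 21.6, 25.7 and 67.0 TPM in 3p loss and 2.25, 5.95 and 1.76 TPM in 3q gain (log2 change 3.12 ± 0.49, adjusted p = 0.0191), and its WT libraries, with 9.56, 34.4 and 7.22 TPM, overlapped 3p loss. SPON2, a matrix protein, had 22.2, 4.19 and 23.3 TPM in 3p loss and 0.195, 0.901 and 0.778 TPM in 3q gain. EPGN lost its call without 3q gain 2, ANKRD1 and TWIST1 without 3p loss 1 or any 1 3q gain library, and SPON2 in 5 of 6 fits (largest adjusted p = 0.128).

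Of the markers of mesenchymal and endothelial cells, limma called the 1 tested endothelial marker, KDR, and 0 of 3 tested fibroblast markers. Of these 3, 1 was higher at an unadjusted p under 0.05. Off chromosome 3, 1.82% of tested genes were called, and 1428 of 10557 reached that unadjusted p in either direction. KDR and DCN averaged under 1 TPM in 3q gain and entered the test through their 3p loss levels, so they could hardly be called lower. Summed fibroblast markers (COL1A1, COL1A2, COL3A1, DCN, LUM, PDGFRA, PDGFRB) came to 90, 8.06 and 124 TPM in 3p loss and 2.75, 4.09 and 6.83 TPM in 3q gain. DCN, a matrix proteoglycan, made up most of it, with 75.8, 2.96 and 114 TPM in 3p loss and 0.179, 0.203 and 0.368 TPM in 3q gain, and missed the threshold (log2 change 4.71, adjusted p = 0.0733), and 3 of the 7 reached a mean of 1 TPM. Endothelial markers summed to 4.24, 3.42 and 14.4 TPM in 3p loss and 0.189, 0.610 and 0.349 TPM in 3q gain. KDR, the receptor of VEGF, was called (log2 change 2.45 ± 0.47, adjusted p = 0.0356), and lost its call in 4 of 6 fits with 1 library left out (largest adjusted p = 0.113), while PECAM1, VWF and CDH5 stayed under a mean of 1 TPM. Immune markers summed to 11.0, 9.62 and 33.4 TPM in 3p loss and 19.9, 18.9 and 17.1 TPM in 3q gain, with 2 of 5 at 0 in all 6 libraries. In bulk RNA a change in the share of cells of a type and a change in RNA per cell cannot be told apart, and the part of these markers in the genes above was not tested.

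Wnt pathway members moved both ways. Of 14 tested Wnt and beta-catenin genes off chromosome 3, 2 rose and 1 fell in 3p loss cells, with a median of -0.08, while CTNNB1 itself fell. Off chromosome 3 as a whole, 0.957% of genes were called higher and 0.862% lower. DKK1, a secreted Wnt inhibitor, had 289, 293 and 610.0 TPM in 3p loss and 101, 82.8 and 95.9 TPM in 3q gain (log2 change 1.99 ± 0.28, adjusted p = 0.0133). APCDD1, a membrane Wnt inhibitor, had 15.2, 6.53 and 15.0 TPM in 3p loss and 0.2, 1.31 and 2.42 TPM in 3q gain (log2 change 2.56 ± 0.45, adjusted p = 0.0268). DKK3, a member of the same family as DKK1, had 68.1, 59.1 and 74.7 TPM in 3p loss and 115, 172 and 140.5 TPM in 3q gain (log2 change -1.06 ± 0.16, adjusted p = 0.0191). KREMEN2, a DKK1 receptor, fell, with 2.95, 0.669 and 2.62 TPM in 3p loss and 10.3, 8.03 and 10.6 TPM in 3q gain (log2 change -1.87 ± 0.34, adjusted p = 0.0303). DKK1 lost its call without any 1 3q gain library, DKK3 without 3p loss 1, 3q gain 2 or 3q gain 3, and APCDD1 and KREMEN2 in 4 of 6 fits (largest adjusted p = 0.119).

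Among genes lower in 3p loss cells off chromosome 3, SYT12, a synaptotagmin of vesicle traffic, had the largest named change. It had 2.69, 6.23 and 2.54 TPM in 3p loss and 23.3, 28.4 and 20.2 TPM in 3q gain (log2 change -2.44 ± 0.29, adjusted p = 0.0106). PMEPA1, an inhibitor of TGF-beta signalling that TGF-beta itself raises, had 3.13, 5.18 and 5.74 TPM in 3p loss and 28.1, 21.4 and 14.9 TPM in 3q gain (log2 change -1.97 ± 0.28, adjusted p = 0.0132), and WT libraries had 33.7, 69.5 and 53.1 TPM. SIRPA, the receptor of CD47, had 5.15, 4.45 and 6.66 TPM in 3p loss and 19.4, 22.6 and 14.6 TPM in 3q gain (log2 change -1.62 ± 0.21, adjusted p = 0.0118). PLEKHA4 had 9.45, 5.13 and 8.65 TPM in 3p loss and 26.9, 29.2 and 31.6 TPM in 3q gain (log2 change -1.82 ± 0.22, adjusted p = 0.0105). GLDC, the glycine-cleaving enzyme of mitochondria, had 24.3, 18.6 and 8.08 TPM in 3p loss and 59.6, 94.8 and 51.0 TPM in 3q gain, but its WT libraries ran from 1.40 to 68.8 TPM and in the fit that included them its adjusted p was 0.385. CCNJL, FEZ1, PIP5KL1, ACP5 and CA9 completed the 12 largest drops together with UBE2L6 and KREMEN2, with log2 changes between -2.35 and -1.69. PLEKHA4, CCNJL and PIP5KL1 lost their calls without 3q gain 2, SYT12 and FEZ1 also without 3p loss 1, and SIRPA, PMEPA1 and ACP5 also without 3q gain 1 (largest adjusted p = 0.0826). GLDC kept its call in 1 of 6 such fits (largest adjusted p = 0.131). With the WT libraries in the fit, CCNJL (adjusted p = 0.0708), CA9 (0.0555) and ACP5 (0.165) were not called either.

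Interferon response genes leaned lower in 3p loss than in 3q gain cells, with few calls. UBE2L6, the E2 enzyme for ISG15, had 20.6, 18.3 and 43.6 TPM in 3p loss and 118, 112 and 139 TPM in 3q gain (log2 change -2.22 ± 0.30, adjusted p = 0.0129). Its WT libraries had 38.8, 6.04 and 16.8 TPM, overlapping those of 3p loss and below those of 3q gain. UBE2L6 lost its call without 3p loss 1 or any 1 3q gain library (largest adjusted p = 0.0605), and with the WT libraries in the fit (0.0545). It was the only call among 57 tested genes off chromosome 3, where 0.862% of all genes were called lower. Of the 57, 55 had estimates below 0, with a median of -0.66, and 12 were lower at an unadjusted p under 0.05. That unadjusted p was reached in either direction by 1428 of 10557 genes off chromosome 3. Summed over the list, the level was 2010, 1760 and 4210 TPM in 3p loss and 6140, 3160 and 4930 TPM in 3q gain, so that 3p loss replicate 3 stood above 3q gain replicate 2. Without 3p loss replicate 3 there were 3 calls and without 3p loss replicate 1 or any 1 3q gain library there were 0. The interferon-stimulated response element, spelt GAAA, any 2 bases, GAAA on either strand, was in 29 of 45 promoters of the list that could be matched (64.4%) and in 2.76% of tested genes with a promoter, and that of UBE2L6 held no match. MHC class I genes had 0 calls of 17 by limma with 1 lower at an unadjusted p under 0.05, and class II genes 0 of 5 with 1.

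**Figure D4:**
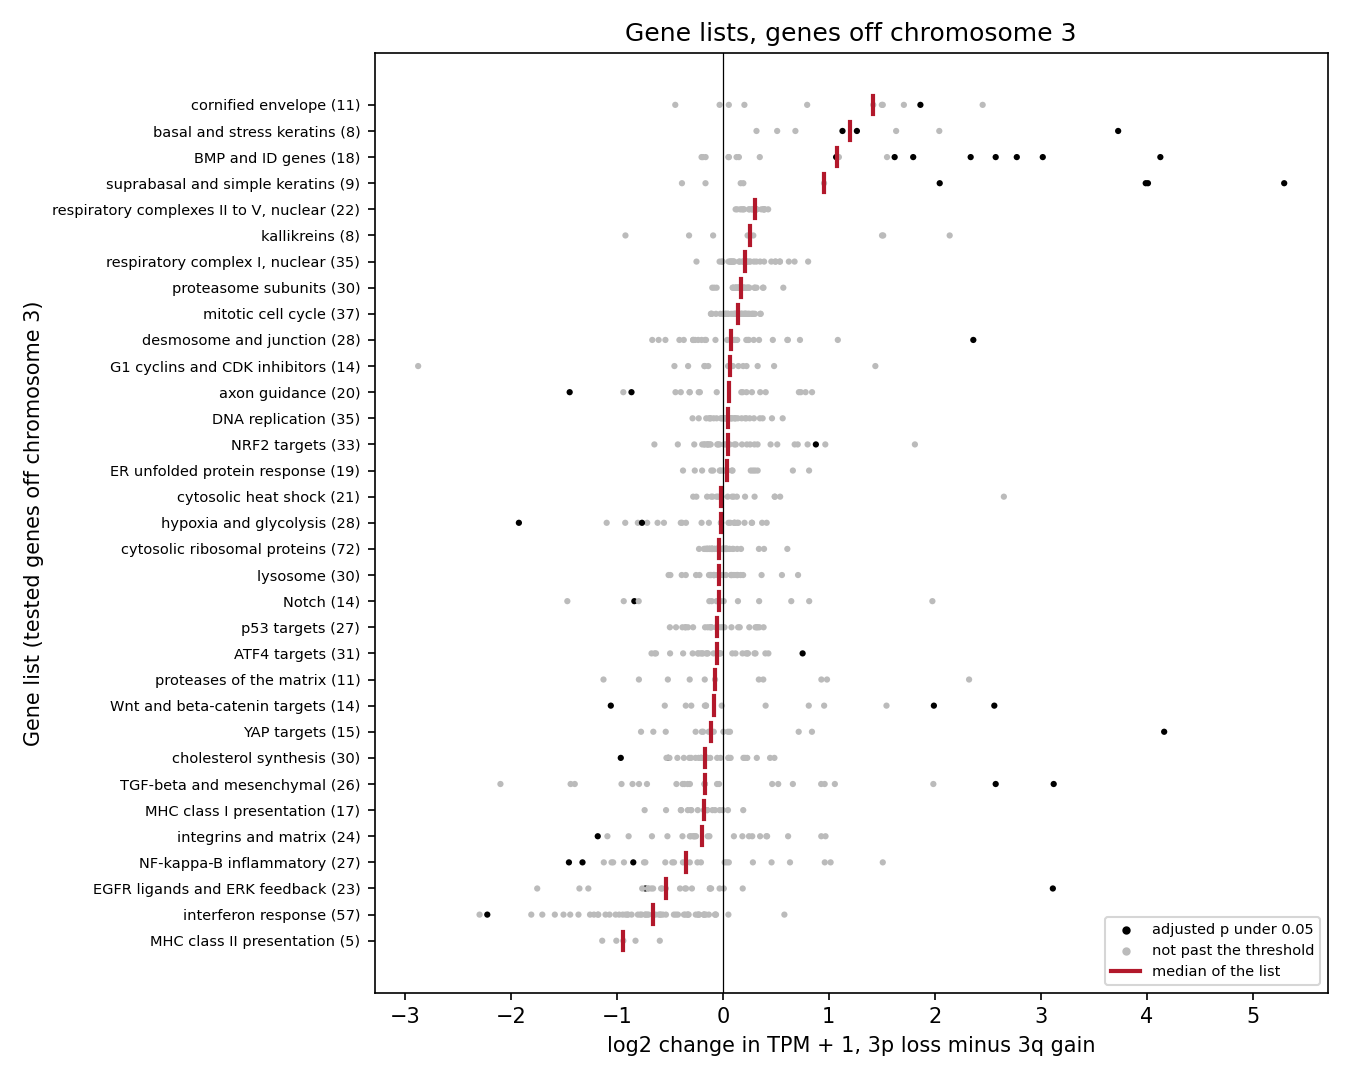
Log2 change (3p loss minus 3q gain) of each tested gene off chromosome 3 in the gene lists, with the number tested in brackets, lists ordered by their median (red bars). Black points passed the adjusted p of 0.05. They gather on the right in the BMP and ID genes and the keratins, where 8 of 18, 3 of 8 and 4 of 9 were called. Some of these genes entered the test only through their 3p loss levels.

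Inflammatory and adhesion genes gave a few lower calls. Of 27 NF-kappa-B and inflammatory genes off chromosome 3, 3 fell and none rose, with a median of -0.35; off chromosome 3 as a whole 0.862% of genes were lower. Only 1 of the list passed with median centring, with no filter, with a mean of 10 TPM or more, or with the WT libraries in the fit. S100A9, a calcium-binding alarmin, had 11.2, 8.15 and 9.28 TPM in 3p loss and 19.8, 38.0 and 27.9 TPM in 3q gain (log2 change -1.45 ± 0.24, adjusted p = 0.0225). ICAM1, an adhesion receptor for leukocytes, had 2.92, 3.85 and 2.00 TPM in 3p loss and 11.2, 8.21 and 6.93 TPM in 3q gain (log2 change -1.32 ± 0.25, adjusted p = 0.0349). RELB, a subunit of NF-kappa-B, fell by 0.84 on the log2 scale (adjusted p = 0.0439, and 0.0742 with the replicate block). ITGA2, the alpha chain of a collagen receptor, had 4.05, 5.49 and 4.43 TPM in 3p loss and 9.73, 13.2 and 12.6 TPM in 3q gain (log2 change -1.18 ± 0.18, adjusted p = 0.0191). The axon guidance pair EFNB1 and EPHB2, a ligand and a receptor kinase, fell by 0.86 and 1.44 on the log2 scale (adjusted p = 0.0157 and 0.0352). S100A9 and ITGA2 kept their calls in 2 of 6 fits with 1 library left out, EFNB1 in 3, ICAM1, RELB and EPHB2 in 1 (largest adjusted p = 0.148). With the WT libraries in the fit, the adjusted p was 0.223 for S100A9 and 0.280 for ICAM1.

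Metabolic and stress lists had isolated calls, where 1.82% of all tested genes off chromosome 3 were called. At an unadjusted p under 0.05, 7 of 33 NRF2 targets off chromosome 3 were higher and 0 lower. Of 28 hypoxia and glycolysis genes, 0 were higher and 8 lower at that p, and of 31 ATF4 targets 2 were higher and 4 lower. Over all genes off chromosome 3, 1428 of 10557 reached it in either direction. FTH1, the heavy chain of ferritin and a target of NRF2, had 7339, 7066 and 7420 TPM in 3p loss and 3302, 5224 and 3595 TPM in 3q gain (log2 change 0.88 ± 0.17, adjusted p = 0.0343, and 0.0523 with the replicate block). FTH1 has many processed copies that could share its reads. TKT, a transketolase on 3p from the same list, had 413, 509.5 and 475 TPM in 3p loss and 908, 954 and 1197 TPM in 3q gain (log2 change -1.12 ± 0.13, adjusted p = 0.0105). CA9 and P4HA1 were the calls among 28 hypoxia and glycolysis genes (adjusted p = 0.0349 and 0.0368), and with the block neither passed (0.0607 and 0.0600). ATF3, a stress-induced factor, had 93.3, 72.0 and 66.9 TPM in 3p loss and 43.5, 43.9 and 47.9 TPM in 3q gain, the only call among 31 ATF4 targets (adjusted p = 0.0342, and 0.0541 with the block). MANF and EDEM1 of the unfolded protein response lie on 3p and fell by 0.95 and 1.31 on the log2 scale, while none of the 19 tested genes of that list off chromosome 3 was called by limma, with 4 higher and 1 lower at an unadjusted p under 0.05. TKT, MANF and EDEM1 kept their calls in 5 of 6 fits with 1 library left out, and the rest of those named here in 1 or 2.

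Among the remaining signalling lists, 26 TGF-beta and mesenchymal genes off chromosome 3 had 2 higher calls (SMAD6 and TWIST1; 4 calls with the replicate block), 14 Notch genes had 1 lower (DTX4; 3 with the block) and 23 genes of EGFR ligands and ERK feedback had 1 higher (EPGN) and 1 lower (HBEGF, adjusted p = 0.0598 with the block). DTX4 and HBEGF kept their calls in 1 of 6 fits with 1 library left out (largest adjusted p = 0.152). The medians of these lists were -0.17, -0.04 and -0.54. At an unadjusted p under 0.05, 5 were higher and 3 lower in the first, and 2 higher and 4 lower in the second. In the third, 1 was higher and 9 lower at that p, and 20 of 23 estimates were below 0. Off chromosome 3 as a whole, 0.957% of genes were called higher and 0.862% lower. Growth and damage lists had no call by limma. The counts were 0 of 37 mitotic genes with 3 higher at an unadjusted p under 0.05, 0 of 35 replication genes off chromosome 3 with 1 higher, 0 of 14 genes of G1 cyclins and CDK inhibitors with 1 higher and 3 lower, 0 of 27 p53 targets with 4 lower and 0 of 21 cytosolic heat shock genes with 3 higher and 1 lower. Over all genes off chromosome 3, 1428 of 10557 had an unadjusted p under 0.05 in either direction. With the replicate block 1 heat shock gene passed. The median log2 changes were 0.15 for mitotic, 0.05 for replication, 0.07 for G1 genes, -0.05 for p53 targets off chromosome 3 and -0.01 for heat shock genes.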

How the data were processed

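PolyA-selected RNA was sequenced as stranded paired-end libraries pooled in 1 lane, per the labels' protocols. The mRNA table as deposited by the authors gives values on a TPM scale, by their column sums, with no unit named, and whether they are FPKM could not be settled. Reads were aligned to GRCh38, per the submitters' processing notes; the aligner, counting program and annotation are not given in the sources used here. Read depth is unknown, so no counting interval is given. Genes were placed with RefSeq GRCh38.p14 (17748 of 17756, 17614 by symbol and 134 by synonym), with chromosome 3 split at 91 Mb. The number of unused per-sample columns was 0.

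The test was limma's moderated statistic (limma 3.58.1 under R 4.3.3, mean-variance trend) on log2(TPM + 1) in the 6 libraries, for genes averaging 1 TPM or more, and p-values were adjusted by Benjamini-Hochberg over all 11211; fold changes of low genes are understated on this scale, and those against values listed at 0 depend on the pseudocount. The scripts were tested on simulated data. Members and lists were chosen with earlier results of these data known. Named genes were, off chromosome 3, the 12 largest positive and 12 largest negative calls without overlap, with a mean of at least 5 TPM in the higher group; on each arm the 4 largest negative calls and the 4 most positive values at that mean, and a list of cancer genes there; and from each list 2 to 4 of its calls. Same-numbered libraries deviated together (correlations of 0.122, 0.155 and 0.144, against -0.187 to 0.033 for unlike numbers), so the replicate number was also fitted as a block, a pairing taken from the data and the shared numbers. Alternatives were leaving out each library, the WT libraries in the fit, other scaling, filters and pseudocount. Some items are not reported here.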

Additional observations from a re-analysis of the deposited data

How the results depend on the processing

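Of 3128 alternative values, 2462 stayed the same, 415 no longer passed, 30 passed only in the alternative, 206 moved and 15 changed sign. The same meant direction and side of the threshold for a gene, and a shift below the spread of libraries for an arm. For a count it meant a value near the first, and 298 calls without the filter against 432 still counted as the same. With 1 library left out, calls over all tested genes ran from 36 to 549, 3p calls from 22 to 183, 3q calls from 0 to 56, calls off chromosome 3 from 14 to 310 and calls in the gene lists from 5 to 57, against 39 with all 6 libraries. Without the filter on low values, 3q calls were 30, calls off chromosome 3 were 122, list calls 23, the 3p arm difference -0.68 and the 3q arm difference -0.38. With a mean of at least 10 TPM, calls off chromosome 3 were 123, list calls 24 and the 3p arm difference -0.92. Without the mean-variance trend 3q calls were 25, and with a pseudocount of 0.1 the 3p arm difference was -0.96. The cause was not tested.

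The replicate block gave 452 calls, 349 of them among the 432; beside the genes named with it above, it ended the calls of ITGB5 (adjusted p = 0.0573) and MEST (0.0735) and changed no other call of a gene described here. With the WT libraries in the fit, PARP14 (adjusted p = 0.0587), DCUN1D1 (0.0898), NFKBIZ (0.0700), RPL24 (0.137), ATF3 (0.112) and HBEGF (0.262) were also not called. No called gene changed sign. The uncalled genes that did with 1 library left out had ranges of -0.015 to 1.63 (TIMP4), -0.17 to 1.09 (NUP210), -0.032 to 0.12 (ARHGEF3), -0.46 to 0.53 (PPARG), -0.068 to 0.78 (FAM43A), -0.002 to 0.12 (TFRC), -0.15 to 0.029 (BCL6) and -0.089 to 0.34 (PLD1). With median centring PPARG was at 0.02 and BCL6 at 0.009. Depth is unknown, so how far it limits low genes could not be tested. Of 102 called genes that were named, 14 held in every alternative run.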
